A study of Mus musculus with 18 samples.

Results

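The heart muscle genes described here were followed across 9 Tbx1 genotypes of the mouse embryo: Myh6, Myh7, Myl2, Myl3, Myl4, Myl7, Tnnt2, Actc1, Ryr2 and Nppa. They were chosen by name as cardiomyocyte genes, with earlier results of these data known. They make up 10 of the 18193 genes that the array annotation pairs with a probe set of a single symbol. All probe sets annotated with them were read, 19 of 45037. Of these, 17 carry 1 symbol and 2 are shared by Myh7 and Myh6. RNA of 18 whole embryos of embryonic day 9.5, on a mixed 129SvEv and C57Bl/6 background, had been hybridised to Affymetrix Mouse Genome 430 2.0 arrays, 1 embryo per array. The dosage of Tbx1, a T-box gene of the pharynx, was varied with a null allele (-) and the hypomorphic alleles Neo and Neo2. Each genotype had 2 embryos. No wild-type allele was left in Neo2/Neo2, Neo2/Neo, Neo2/-, -/- and Neo/Neo, 1 in Neo2/+, Neo/+ and +/-, and 2 in WT. Values are log2 signals, so that a difference of 1 is a 2-fold change. The hearts were not dissected, so fewer heart cells and less RNA per heart cell cannot be told apart.

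Cardiomyocytes shorten when the heads of myosin heavy chains pull on actin filaments, a step that light chains tune and that troponin gates by calcium released through ryanodine receptors. In the embryonic heart the parts of this machine come in chamber forms: Myl2 and Myl3 are light chains of the ventricle, Myl7 and Myl4 become those of the atrium, and Myh7 is the main ventricular heavy chain before birth while Myh6 takes over after it in the mouse. Nppa, which encodes atrial natriuretic peptide, marks working myocardium of the forming chambers. Tbx1 acts in the second heart field, progenitors that add cells to the outflow pole of the tube.

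The sequence just before a gene's start is where heart factors can bind, so 5 of the 13 start windows found for the 10 genes are shown: an alpha heavy chain, an atrial light chain, both thin filament genes and Nppa. Each window holds 300 bases, 250 before and 50 from the RefSeq gene start on (GRCm38.p6), 5′ to 3′ on the gene's strand. Capitals mark matches on either strand to the T-box half-site AGGTGTGA, the NK2 site AAGTG, the GATA site GATAA, the CArG box bound by serum response factor, or TATAAA.
Myh6 (chr14:54966558-54966857, minus strand): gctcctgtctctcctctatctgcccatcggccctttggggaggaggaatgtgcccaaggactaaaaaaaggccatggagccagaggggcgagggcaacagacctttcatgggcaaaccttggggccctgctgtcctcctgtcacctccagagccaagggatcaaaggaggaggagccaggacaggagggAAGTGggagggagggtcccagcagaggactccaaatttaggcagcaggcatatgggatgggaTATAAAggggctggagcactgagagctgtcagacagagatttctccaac
Myl7 (chr11:5898733-5899032, minus strand): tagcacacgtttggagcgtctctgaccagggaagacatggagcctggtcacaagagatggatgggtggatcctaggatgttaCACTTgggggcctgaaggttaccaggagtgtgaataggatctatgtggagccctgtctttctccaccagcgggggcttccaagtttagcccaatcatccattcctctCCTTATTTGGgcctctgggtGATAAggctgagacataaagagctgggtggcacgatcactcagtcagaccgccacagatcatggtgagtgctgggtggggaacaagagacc
Tnnt2 (chr1:135836084-135836383, plus strand): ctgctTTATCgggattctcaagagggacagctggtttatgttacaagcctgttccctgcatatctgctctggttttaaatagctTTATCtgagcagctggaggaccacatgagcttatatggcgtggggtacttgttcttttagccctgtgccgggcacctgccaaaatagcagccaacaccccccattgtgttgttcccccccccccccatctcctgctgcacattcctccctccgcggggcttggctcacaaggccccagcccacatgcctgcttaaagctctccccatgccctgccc
Actc1 (chr2:114052826-114053125, minus strand): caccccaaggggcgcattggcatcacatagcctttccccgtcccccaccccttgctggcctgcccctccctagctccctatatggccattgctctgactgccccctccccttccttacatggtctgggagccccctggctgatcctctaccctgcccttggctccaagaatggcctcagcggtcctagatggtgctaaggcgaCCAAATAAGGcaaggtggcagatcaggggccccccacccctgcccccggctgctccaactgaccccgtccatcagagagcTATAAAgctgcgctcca
Nppa (chr4:148000472-148000771, plus strand): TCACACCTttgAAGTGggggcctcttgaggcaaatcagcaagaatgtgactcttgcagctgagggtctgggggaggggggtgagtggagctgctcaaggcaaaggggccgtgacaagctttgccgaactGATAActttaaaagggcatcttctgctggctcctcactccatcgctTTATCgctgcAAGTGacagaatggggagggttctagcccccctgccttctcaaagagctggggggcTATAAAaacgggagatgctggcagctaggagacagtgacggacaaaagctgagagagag
AGGTGTGA was found in the window of Nppa alone among the 10 genes, at -250 to -243 on the minus strand, and in 1.28% of 32851 windows of all genes. The CArG box was found in Actc1 (-47 to -38), Myl7 (-61 to -52) and Myl3 (-85 to -76), and in 1.63% of all windows. AAGTG was found in 7 of the 13 windows (6 genes), GATAA in 5 (5 genes) and TATAAA in 4 (4 genes). The shares of all windows were 46.4%, 25.4% and 13.6%. The MEF2 box, some forms of which hold the letters TATAAA, was in no window of the 10 genes and in 3.19% of all windows. Such a match is a string of letters and shows no binding.

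Tbx1 itself was read at 1 probe set. Its signal averaged 5.07 ± 0.13 in -/-, 5.12 ± 0.11 in Neo/Neo, 5.66 ± 0.02 in Neo2/Neo and 5.71 ± 0.13 in Neo2/-, against 6.59 ± 0.06 in WT (SD, n = 2 each). The arrays labelled Neo2/Neo2 had 6.62 ± 0.0039, so that every direction given for them rests on the label. The heterozygotes lay between 6.30 ± 0.07 (Neo/+) and 6.54 ± 0.07 (Neo2/+). Array medians were between 5.73 and 5.94, and the 2 embryos of a genotype correlated at r of 0.977 to 0.997. Sex-linked genes gave 9 males and 9 females: -/- and WT had females alone, Neo2/Neo2 and Neo/Neo males alone. Precision is limited by the number of arrays.

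The first +/- and the first -/- replicate stood apart, and the heart genes show where. On the +/- array Myh6 lay at -2.33 relative to the mean of the other 16 arrays, Tnnt2 at -2.13 and Myl7 at -1.75. Myh7 (-0.80) and Actc1 (-0.36) also lay below all 16 there. The same embryo had Myl3 at -0.06, Nppa at 0.11 and Myl2 at -0.17, all inside the range of the 16. A second probe set of Tnnt2 (1418726_a_at) read -0.17 there where the first (1424967_x_at) read -2.13, and a probe set shared by Myh7 and Myh6 (1448554_s_at) read -0.01. On that array, then, probe sets of the same gene disagreed. On the -/- array both heavy chain genes were low: Myh6 lay at -2.16, Myh7 at -1.49 and the shared probe set at -1.66. Ryr2 lay at -1.33, Nppa at -1.21 and Actc1 at -0.90 there. Myl3 (0.16), Myl4 (-0.10), Myl7 (-0.28) and Tnnt2 (-0.35) of that embryo lay within the range of the other 16 arrays, and Myl2, at 0.51, above it. Counts of called probe sets and the balances are given with and without these 2 arrays, and differences of single genes only where stated.

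**Figure D1:**
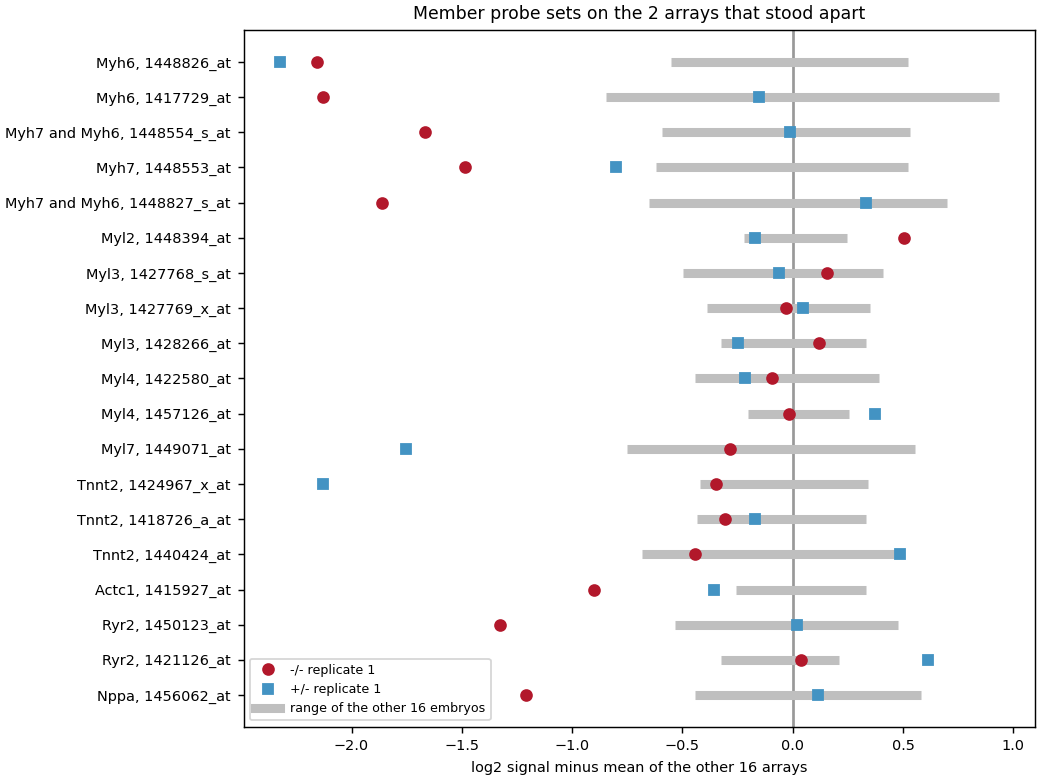
Deviation of the 19 probe sets on -/- replicate 1 (circles) and +/- replicate 1 (squares) from the mean of the other 16 arrays (horizontal axis, log2), with grey bars for the range of those 16. Myh6 1448826_at lies far left on both arrays, Tnnt2 1424967_x_at and Myl7 on the +/- array, and the Myl3 probe sets lie within or at the range on both.

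No heart gene passed limma's test in any mutant genotype against WT, with p adjusted by Benjamini-Hochberg over the whole array and called when under 0.05. Of the 19 probe sets, 0 were called in each of the 8 comparisons with WT. Over all probe sets the same tests called 0.0822% in Neo/Neo, 0.0311% in -/- and in Neo/+, 0.00222% in each of Neo2/Neo2, Neo2/Neo and Neo2/-, and 0% in Neo2/+ and in +/-. At an unadjusted p under 0.05, 2 of the 19 (10.5%) passed in Neo2/Neo2, where 11.6% of all probe sets did, 1 (5.26%) in +/-, where 11.7% did, and 0 in the other 6 comparisons, where 6.28% to 15.1% did. The moderated F-test for any difference between genotypes called 0 of the 19 against 0.275% of all probe sets, and 1 of the 19 (Myl4, adjusted p = 0.290) passed at an unadjusted p under 0.05, as did 13.7% of all probe sets. Embryos with 0 wild-type alleles were also compared with those with 1, and signals were regressed on the Tbx1 signal; both called 0 of the 19, at 0% of all probe sets, with 0 of the 19 at an unadjusted p under 0.05, against 4.53% of all probe sets in the allele comparison and 8.74% in the regression. Once the 2 outlying arrays were left out, the F-test called Myh6 (1448826_at, adjusted p = 0.0483) and the shared probe set 1448554_s_at (adjusted p = 0.0404), against 2.77% of all probe sets. At an unadjusted p under 0.05, 10 of the 19 probe sets (52.6%, several of them for the same gene) and 21.1% of all probe sets passed that F-test. In the same fit Ryr2, whose signals were all under 6 and taken as dim, was called in Neo2/Neo2 (adjusted p = 0.0352), where 2.02% of all probe sets were called. At an unadjusted p under 0.05, 9 of the 19 (47.4%) and 20.1% of all probe sets passed in that comparison. With embryo sex as a covariate and the same 16 arrays, 0 of the 19 were called in the F-test and in Neo2/Neo2. Over all probe sets, calls there fell from 1247 to 782 in the F-test and from 911 to 4 in Neo2/Neo2. In the 16-array fit without that covariate, 0 of the 19 were called in Neo2/+, Neo/+, Neo2/Neo, Neo2/- and Neo/Neo against WT. The shares of all probe sets called there were 0% in Neo2/+, 0.151% in Neo/+, 0.0511% in Neo2/Neo, 0.00444% in Neo2/- and 0.302% in Neo/Neo. The genotypes +/- and -/- had 1 embryo each in that fit and are not counted here.

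Neo2/Neo2 had the highest of the 9 genotype means in 8 of 10 genes over 18 arrays and in 5 over 16. Neo2/Neo had the lowest in 2 of 10 (Myl3 and Myl4) over 18 arrays and in 7 over 16. At the brightest probe set of each gene, both Neo2/Neo2 embryos lay above both WT embryos in 8 of 10 genes, the dim Ryr2 among them, where 24.8% of all probe sets did so, and below them in 1 (Nppa; 21.7% of all). Both Neo2/Neo embryos lay below both WT embryos in 7 of 10 genes (Myh6, Myl2, Myl3, Myl4, Myl7, Tnnt2 and Actc1), where 23.8% of all probe sets did so, and above them in 1 (Nppa; 20.1%). Neo2/Neo2 lay above Neo2/Neo in 8 of 10 genes (34.2% of all probe sets) and below it in 1, again Nppa (25.2%). The median difference from WT over the 10 genes was 0.39 in Neo2/Neo2 and -0.23 in Neo2/Neo, beside 0.00 and -0.02 over all probe sets. In -/- it was -0.01, or 0.33 without the replicate that stood apart. The direct difference between Neo2/Neo2 and Neo2/Neo was not fitted. The Neo2/Neo2 embryos were males and the WT embryos females. With embryo sex as a covariate the median difference of Neo2/Neo2 was 0.15 (8 genes positive, 2 negative), and Tnnt2 turned to -0.14. That covariate was estimated only within genotypes that had both sexes: Neo2/+, Neo/+, +/-, Neo2/Neo and Neo2/-. The outlying +/- replicate 1 is among these embryos, so it enters every 18-array value given with the covariate. Over 16 arrays, in a fit added after the values were seen, the median with that covariate was 0.36 (9 positive, 1 negative).

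**Figure D2:**
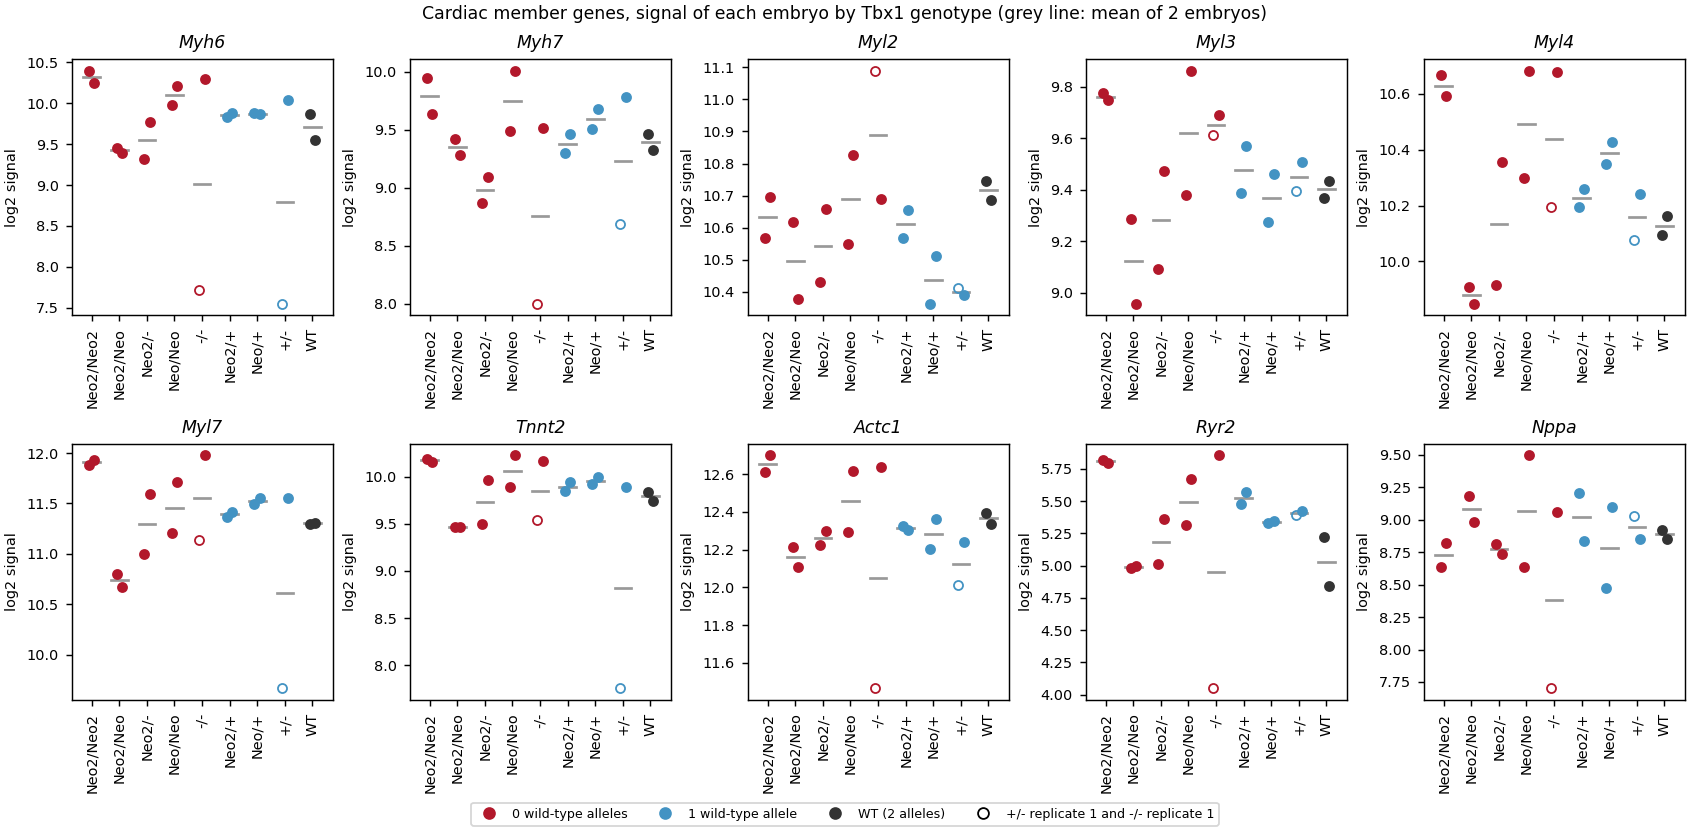
Signal of each embryo (vertical axes, log2) by Tbx1 genotype (horizontal axes) for the 10 genes, each at its brightest probe set, with a grey line at the mean of the 2 embryos and open points for +/- replicate 1 and -/- replicate 1. Neo2/Neo2 has the highest mean in 8 of the 10 panels, and Myl2 and Nppa are the exceptions.

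Of the motor proteins, Myh6 encodes the alpha heavy chain. Its signal was 10.40 and 10.25 in Neo2/Neo2, 9.46 and 9.40 in Neo2/Neo, 9.33 and 9.78 in Neo2/-, 9.98 and 10.21 in Neo/Neo and 7.72 and 10.30 in -/-. Embryos with 1 wild-type allele had 9.83 and 9.88 in Neo2/+, 9.88 and 9.87 in Neo/+ and 7.55 and 10.04 in +/-, against 9.87 and 9.56 in WT. With the 2 outlying arrays set aside, both Neo2/Neo embryos and Neo2/- replicate 1 were lowest, and both Neo2/Neo2 embryos and -/- replicate 2 were highest. The difference from WT was 0.61 in Neo2/Neo2 (SE 0.73, adjusted p = 0.823 in limma), and with 16 arrays the same 0.61 had an SE of 0.15 (adjusted p = 0.0587). With embryo sex as a covariate it was 0.021 over 18 arrays (adjusted p = 0.998) and 0.50 over 16 (adjusted p = 0.315). Pooled over genotypes, the SD between the 2 embryos of a genotype was 0.86 with 18 arrays and 0.17 with 16. Its second probe set, 1417729_at, had a mean of 4.85, below the signal of 6 taken as dim here.

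Myh7 encodes the beta heavy chain. It read 9.95 and 9.64 in Neo2/Neo2, 9.43 and 9.28 in Neo2/Neo, 8.87 and 9.10 in Neo2/-, 9.49 and 10.01 in Neo/Neo and 7.99993 and 9.52 in -/-. The heterozygotes had 9.30 and 9.47 in Neo2/+, 9.51 and 9.68 in Neo/+ and 8.69 and 9.78 in +/-, against 9.47 and 9.32 in WT. Neo2/- was the lowest genotype apart from the -/- array, and WT overlapped with Neo2/+ and Neo2/Neo. Its difference from WT in Neo2/Neo2 was 0.40 (SE 0.41, adjusted p = 0.778), and in Neo2/- it was -0.41 (adjusted p = 0.936). The Neo2/Neo2 value with embryo sex as a covariate was 0.16 over 18 arrays and 0.38 over 16. The shared probe set 1448554_s_at, which cannot be assigned to either heavy chain, showed the same high end at 10.01 and 9.92 in Neo2/Neo2, against 9.52 and 9.29 in WT.

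The ventricular light chains Myl2 and Myl3 correlated with each other at r = 0.58 over 18 arrays and 0.65 over 16. Their differences from WT had opposite signs in Neo2/Neo2 (-0.08 and 0.36) and the same sign in Neo2/Neo (-0.22 and -0.28). Myl2 encodes the regulatory light chain of the ventricle. Signals were 10.57 and 10.70 in Neo2/Neo2, 10.62 and 10.38 in Neo2/Neo, 10.43 and 10.66 in Neo2/-, 10.55 and 10.83 in Neo/Neo and 11.09 and 10.69 in -/-. With 1 wild-type allele left it was 10.57 and 10.65 in Neo2/+, 10.36 and 10.51 in Neo/+ and 10.41 and 10.39 in +/-, against 10.75 and 10.69 in WT. It varied least of the 10 genes: over the 16 arrays its range was 0.46, a 1.38-fold span. The embryos with 1 wild-type allele lay at or below 10.65, WT at 10.69 or above, and -/- replicate 1 was highest of all. Its difference was -0.32 in +/- (adjusted p = 0.426) and -0.28 in Neo/+ (adjusted p = 0.720).

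Myl3 encodes the essential light chain of the ventricle. The arrays gave 9.78 and 9.75 in Neo2/Neo2, 9.29 and 8.96 in Neo2/Neo, 9.09 and 9.47 in Neo2/-, 9.38 and 9.86 in Neo/Neo and 9.61 and 9.69 in -/-. Heterozygous embryos read 9.39 and 9.57 in Neo2/+, 9.27 and 9.46 in Neo/+ and 9.39 and 9.51 in +/-, against 9.37 and 9.43 in WT. Both outlying arrays lay among the others here. Neo2/Neo2 averaged 0.36 above WT (SE 0.17, adjusted p = 0.436) and Neo2/Neo -0.28 relative to WT (adjusted p = 0.812). Its 3 probe sets moved together, with r between 0.87 and 0.94 over 18 arrays.

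Among the atrial light chains, Myl7 encodes the regulatory form. It stood at 11.88 and 11.93 in Neo2/Neo2, 10.80 and 10.67 in Neo2/Neo, 11.0021 and 11.59 in Neo2/-, 11.20 and 11.71 in Neo/Neo and 11.14 and 11.98 in -/-. Heterozygotes gave 11.36 and 11.42 in Neo2/+, 11.49 and 11.55 in Neo/+ and 9.67 and 11.56 in +/-, against 11.30 and 11.31 in WT. It spanned the widest range, 1.30 or 2.47-fold over the 16 arrays, with Neo2/Neo at the bottom and Neo2/Neo2 and -/- replicate 2 at the top. Neo2/Neo2 differed from WT by 0.60 (SE 0.45, adjusted p = 0.659) and Neo2/Neo by -0.57 (SE 0.45, adjusted p = 0.899). Fitted with embryo sex as a covariate, the Neo2/Neo2 difference was 0.14 over 18 arrays (adjusted p = 0.974) and 0.49 over 16 (adjusted p = 0.409).

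Myl4 encodes the essential form of the atrium, made in the whole embryonic heart and in embryonic skeletal muscle. It was measured at 10.67 and 10.59 in Neo2/Neo2, 9.91 and 9.85 in Neo2/Neo, 9.92 and 10.35 in Neo2/-, 10.30 and 10.68 in Neo/Neo and 10.20 and 10.68 in -/-. The 1-allele embryos stood at 10.20 and 10.26 in Neo2/+, 10.35 and 10.43 in Neo/+ and 10.08 and 10.24 in +/-, against 10.09 and 10.16 in WT. It came nearest to the threshold in Neo2/Neo2, 0.50 above WT (1.42-fold; SE 0.17, adjusted p = 0.299), with a 95% confidence interval of 0.13 to 0.88 for that gene alone. Neo2/Neo lay at -0.25 (adjusted p = 0.859). The second probe set, 1457126_at, was dim (mean 5.66) and did not follow the first, with r of -0.03 over 18 arrays and 0.10 over 16.

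On the thin filament, Tnnt2 encodes cardiac troponin T. Its signal was 10.18 and 10.16 in Neo2/Neo2, 9.46 and 9.46 in Neo2/Neo, 9.50069 and 9.96 in Neo2/-, 9.89 and 10.23 in Neo/Neo and 9.54 and 10.17 in -/-. In the heterozygotes it was 9.84 and 9.94 in Neo2/+, 9.92 and 10.00 in Neo/+ and 7.76 and 9.89 in +/-, against 9.84 and 9.74 in WT. Apart from the +/- array the Neo2/Neo embryos were lowest, and Neo/Neo replicate 2, -/- replicate 2 and both Neo2/Neo2 embryos were highest. Neo2/Neo2 differed from WT by 0.38 (SE 0.46, adjusted p = 0.829) and Neo2/Neo by -0.33 (adjusted p = 0.984). The same differences with embryo sex as a covariate were -0.14 and -0.59 over 18 arrays, and 0.26 and -0.39 over 16. The probe sets 1424967_x_at and 1418726_a_at correlated at r = 0.55 over 18 arrays and 0.95 over 16.

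Actc1 encodes cardiac alpha-actin, which embryonic skeletal muscle also makes. It read 12.61 and 12.70 in Neo2/Neo2, 12.22 and 12.11 in Neo2/Neo, 12.23 and 12.30 in Neo2/-, 12.29 and 12.62 in Neo/Neo and 11.46 and 12.64 in -/-. Among heterozygotes it was 12.32 and 12.31 in Neo2/+, 12.20 and 12.36 in Neo/+ and 12.01 and 12.24 in +/-, against 12.40 and 12.34 in WT. Its span was narrow, 0.59 or 1.51-fold over the 16 arrays, with -/- replicate 1 below all others. Neo2/Neo2 lay 0.29 above WT (adjusted p = 0.738) and Neo2/Neo at -0.20 relative to WT (adjusted p = 0.975).

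Ryr2 encodes the calcium release channel of the sarcoplasmic reticulum. Its brighter probe set gave 5.82 and 5.80 in Neo2/Neo2, 4.98 and 4.99766 in Neo2/Neo, 5.01 and 5.36 in Neo2/-, 5.31 and 5.67 in Neo/Neo and 4.05 and 5.85 in -/-. With 1 allele it read 5.48 and 5.57 in Neo2/+, 5.33 and 5.34 in Neo/+ and 5.40 and 5.42 in +/-, against 5.22 and 4.84 in WT. All these signals are under 6, where a level cannot be told from background. Neo2/Neo2 against WT therefore gets no fold here; the difference in signal tested was 0.78 (SE 0.39, adjusted p = 0.468, and SE 0.15, adjusted p = 0.0352 without the 2 outlying arrays). With embryo sex as a covariate it was not called over 16 arrays either (adjusted p = 0.211). The other probe set, 1421126_at, gave 0.17 for the same comparison with 16 arrays (adjusted p = 0.590).

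Nppa, which encodes a secreted peptide, varied more within genotypes than between them. Its signal was 8.64 and 8.82 in Neo2/Neo2, 9.18 and 8.98 in Neo2/Neo, 8.82 and 8.74 in Neo2/-, 8.64 and 9.49501 in Neo/Neo and 7.70 and 9.06 in -/-. The signal of heterozygotes was 9.21 and 8.84 in Neo2/+, 8.47 and 9.10 in Neo/+ and 9.03 and 8.85 in +/-, against 8.92 and 8.85 in WT. The embryos of Neo/Neo, of Neo/+ and of -/- lay far apart, and the genotypes overlapped widely. Its difference was -0.16 in Neo2/Neo2 (adjusted p = 0.931) and 0.19 in Neo2/Neo (adjusted p = 1.00), so that it was negative in Neo2/Neo2 together with Myl2 alone and the only positive value of the 10 in Neo2/Neo. With embryo sex as a covariate its difference in Neo2/Neo2 turned to 0.13. With 16 arrays, the pooled SD within genotypes was 0.31, and the SD of the genotype means was 0.14.

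Across embryos, 8 of the 10 genes moved together. Over the 28 pairs among all but Myl2 and Nppa, a grouping made after the values were seen, Pearson's r had a median of 0.60 over 18 arrays (0.28 to 0.95) and of 0.87 over 16 (0.57 to 0.97). The closest pair over 16 arrays was Myl4 with Tnnt2 (r = 0.97), and Myl7 with Tnnt2 gave 0.95 over both sets. Myh7 followed less closely, with r of 0.57 with Myl7 and 0.58 with Actc1 over 16 arrays. Nppa had a median r of 0.06 with the other 9 genes over 18 arrays and 0.05 over 16. Myl2 changed with the arrays used: its median r with the other 9 was -0.14 over 18 and 0.43 over 16. The points are the same embryos and arrays for every pair and share their normalization, so that these values describe the embryos and carry no test.

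**Figure D3:**
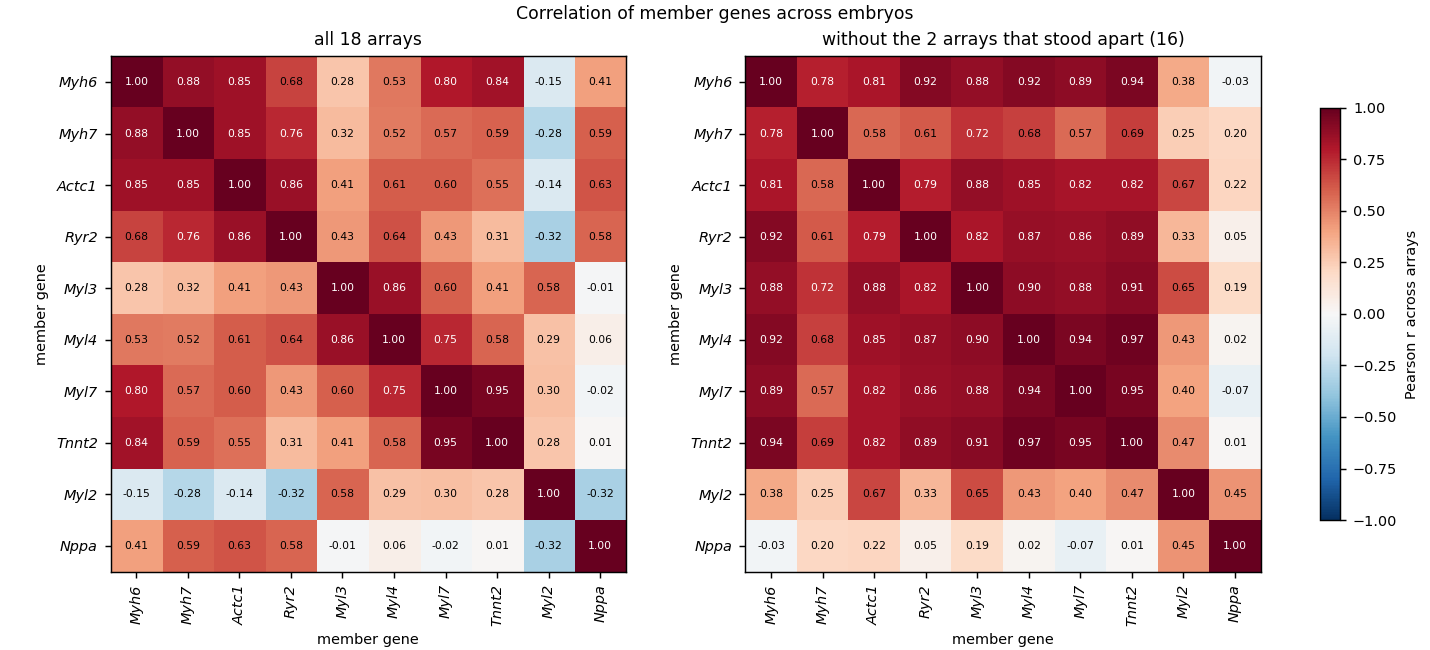
Pearson's r between each pair of the 10 genes (both axes) over all 18 arrays (left) and over the 16 arrays left without +/- replicate 1 and -/- replicate 1 (right). Without those arrays a block of 8 genes stands at 0.57 to 0.97, and Nppa stays between -0.07 and 0.45 with each of the others.

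Chamber and isoform balances were taken as the difference between the log2 signals of a pair of genes on each array, relative to its mean over the arrays, and compared between the 10 embryos with 0 and the 6 with 1 wild-type allele by exact two-sided permutation tests over 4 balances. The ventricular minus atrial regulatory light chain (Myl2 minus Myl7) averaged -0.03 ± 0.47 with 0 alleles and 0.02 ± 0.72 with 1 (SD), a difference of -0.05 (exact permutation p = 0.879, adjusted p = 0.992). The beta minus alpha heavy chain (Myh7 minus Myh6) averaged -0.09 ± 0.33 and 0.16 ± 0.62, a difference of -0.25 (exact permutation p = 0.337, adjusted p = 0.675). Neither balance separated the embryos by number of wild-type alleles beyond their spread, which also holds differences between the pooled genotypes. The ventricular minus atrial essential light chain (Myl3 minus Myl4) averaged -0.01 ± 0.13 and -0.01 ± 0.16 (exact permutation p = 0.992, adjusted p = 0.992). Nppa minus Tnnt2 averaged -0.15 ± 0.49 and 0.26 ± 0.97, a difference of -0.41 (exact permutation p = 0.307, adjusted p = 0.675).

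In 3 of the 4 balances +/- replicate 1 held the highest value, at 1.45 for Myl2 minus Myl7, 1.40 for Myh7 minus Myh6 and 2.17 for Nppa minus Tnnt2. Without the 2 outlying arrays the permutation p-values were 0.438, 0.568, 0.990 and 0.774 in the order above (exact tests, adjusted p = 0.990 for each). What remained was a spread between embryos, in which Neo2/Neo2 was not alone at the low end. Relative to the mean of 16 arrays, Myl2 minus Myl7 was -0.48 and -0.40 in Neo2/Neo2 and 0.54 and 0.66 in Neo2/Neo, against 0.22 and 0.29 in WT. Nppa minus Tnnt2 was -0.57 and -0.36 in Neo2/Neo2 and 0.49 and 0.69 in Neo2/Neo, against 0.05 and 0.09 in WT. Relative to the mean of all arrays, Myl2 minus Myl7 was -0.61 and -0.53 in Neo2/Neo2 and -0.58 in -/- replicate 2. It was -0.46 in +/- replicate 2 and -0.42 in Neo/+ replicate 1. On that scale Nppa minus Tnnt2 was -0.65 and -0.44 in Neo2/Neo2 and -0.55 in Neo/+ replicate 1. No other embryo of the 16 reached the Neo2/Neo values in either balance.

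**Figure D4:**
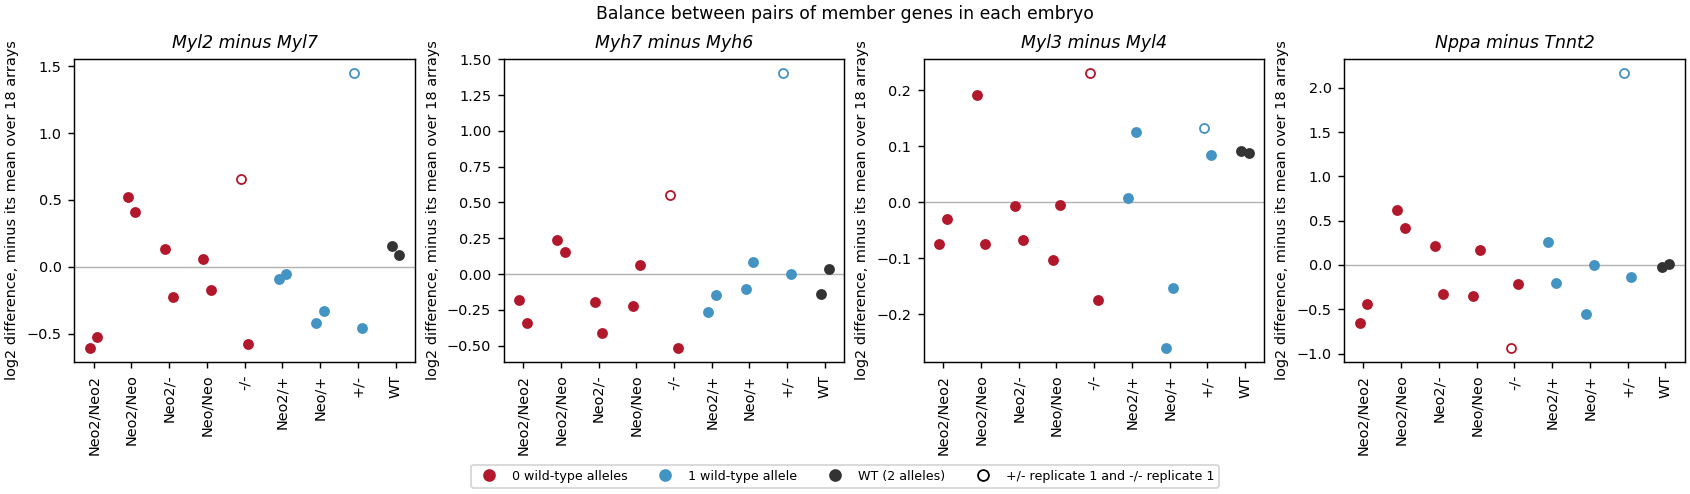
Difference between the log2 signals of a pair of genes on each array, relative to its mean over 18 arrays (vertical axes), by genotype (horizontal axes), with open points for +/- replicate 1 and -/- replicate 1. The open +/- point lies at 1.45, 1.40 and 2.17 in the first, second and last panels, while Myl3 minus Myl4 stays between -0.26 and 0.23.

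The genes outside the 10 whose pattern was most like theirs were sought among 10670 genes with a mean signal of at least 6, by Pearson's r with the mean deviation of the 10 genes on each array. Over 18 arrays, where the 2 outlying arrays carry much of the spread, the nearest were Dnmt3b (r = 0.94), Serbp1 (0.93), Hdac1 (0.90), Mylk3 (0.88), Ddx39a (0.88), Sphkap (0.88), Podxl (0.88) and Tmem201 (0.88). Mylk3 encodes the cardiac myosin light chain kinase, while Dnmt3b and Hdac1 encode a DNA methyltransferase and a histone deacetylase of many cell types. Over 16 arrays, a ranking chosen after the values were seen, the nearest were Nkx2-5 (r = 0.97), Actn2 (0.97), Gyg (0.96), Mybpc3 (0.96), Sphkap (0.94), Nebl (0.92), Rrad (0.91) and Eif4ebp1 (0.91). Nkx2-5 is the homeobox factor of cardiac muscle, and Actn2, Mybpc3 and Nebl encode proteins of the Z-disc, the thick filament and the thin filament's anchor. Sphkap was in both lists of 8.

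The list of other sarcomere and calcium-handling genes held 34 genes, all measured. The F-test called 0 of them over 18 arrays, with 8 at an unadjusted p under 0.05 (13.7% of all probe sets), and 2 over 16 arrays (Nexn, adjusted p = 0.0287, and Slc8a1, adjusted p = 0.0378), where it called 2.77% of all probe sets. Nexn encodes an actin-binding protein of the Z-disc and Slc8a1 the sodium-calcium exchanger. Nexn averaged 7.76 in Neo2/Neo2 and 6.80 in Neo2/Neo, against 7.26 in WT, and Slc8a1 7.35 in Neo2/Neo2 and 6.70 in Neo2/Neo, against 6.81 in WT. Both were also called higher in Neo2/Neo2 over 16 arrays, by 0.50 (adjusted p = 0.0463) and 0.53 (adjusted p = 0.0418). That comparison called 2.02% of all probe sets, and 4 of all 45037 with embryo sex as a covariate. The muscle methyltransferase gene Smyd1 and Fhl2, a LIM protein gene, had F-test adjusted p-values of 0.160 and 0.210 over 18 arrays. The median difference of the 34 from WT was 0.41 in Neo2/Neo2 and -0.12 in Neo2/Neo. Their mean deviation on each array correlated with that of the 10 at r = 0.80 over 18 arrays and 0.94 over 16.

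Of 23 cardiac transcription factors, 22 were measured. The F-test called 0 of them over 18 arrays, with 7 at an unadjusted p under 0.05 (13.7% of all probe sets), and 1, Myocd, a coactivator of serum response factor, over 16 (adjusted p = 0.0365), where it called 2.77% of all probe sets. Over 16 arrays 2 were called higher in Neo2/Neo2, where 2.02% of all probe sets were called in either direction. They were Hey2, a repressor made in the compact ventricular wall, by 0.56 (adjusted p = 0.0385), and Gata4, by 0.72 (adjusted p = 0.0481). Neither was called over 18 arrays (adjusted p = 0.169 and 0.304). With embryo sex as a covariate, the comparison over 16 arrays called 4 of all 45037 probe sets. The median difference of the 22 from WT was 0.20 in Neo2/Neo2 and 0.02 in Neo2/Neo. Of 7 ventricular markers, which include Myl2 and Myl3, 0 were called by the F-test with either set of arrays, as were 0 of 9 atrial markers, which include Myl7, Myl4 and Nppa; 2 and 3 of them had an unadjusted p under 0.05 over 18 arrays. Their median difference from WT in Neo2/Neo2 was 0.37 for the ventricular and 0.01 for the atrial markers, and in Neo2/Neo it was -0.10 and 0.02.

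Genes of other tissues differed between the same embryos, and the counts below stand beside 0.275% of all probe sets called by the F-test over 18 arrays, 13.7% at an unadjusted p under 0.05, and 2.77% called over 16. The mean deviation of 6 neuron markers was -1.14 and -1.05 in Neo2/Neo2 and 1.10 and 1.21 in Neo2/Neo, against 0.28 and 0.34 in WT. All 6 correlated negatively with the heart genes, and the list at r = -0.57 over 18 arrays and -0.84 over 16. The F-test called 0 of them over 18 arrays, with 5 at an unadjusted p under 0.05, and 5 over 16, among them Stmn2, a microtubule regulator of growing axons (adjusted p = 0.0257). For the 7 measured primitive erythroid genes r was -0.37 and -0.66, and for 7 yolk sac endoderm genes it was -0.51 and -0.70. The yolk sac genes had a median mean signal of 6.05, near the level of 6 taken as dim, and 2 of the 7 correlated positively. The F-test called 0 of the erythroid genes over 18 arrays and 4 over 16, and 0 and 1 of the yolk sac genes, with 2 and 4 of them at an unadjusted p under 0.05 over 18 arrays. Of 7 early-stage genes that fall as embryos age, 6 were measured, at r of 0.43 over 18 arrays and 0.67 over 16. Of the 6, 5 correlated positively with the heart genes over 18 arrays and 4 over 16. The F-test called 1 of them over 18 arrays, with 3 at an unadjusted p under 0.05, and 2 over 16. Among the 6, the RNA-binding protein gene Lin28a had 11.72 and 11.73 in Neo2/Neo2 and 9.287 and 9.49996 in Neo2/Neo. It had 10.02 and 10.30 in WT (adjusted p = 0.254 in the F-test over 18 arrays and 0.0195 over 16). The part of the other tissues or of developmental age in the heart gene differences was not tested.

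Muscle outside the heart was checked because it shares some of these genes. The mean of the 10 skeletal muscle markers ran against the heart genes, at r of -0.85 over 18 arrays and -0.81 over 16. Their median mean signal was 6.19, near the level of 6 taken as dim. Single markers differed: 1 of the 10 correlated positively with the heart genes over 18 arrays and 4 over 16. Acta1 is also in the list of 34. The F-test called 1 over 18 arrays (Myl1, adjusted p = 0.04999) and 2 over 16 (Myl1 and Tnnc2). The 5 smooth muscle markers, 2 of which (Acta2 and Myl9) are also in the list of 34, ran with them at r of 0.90 and 0.84, and 0 were called by the F-test in either set, with 1 and 4 at an unadjusted p under 0.05. Of 7 endocardial markers 0 were called over 18 arrays, with 0 at an unadjusted p under 0.05, and 1 over 16 (Npr3, adjusted p = 0.0321), at r of 0.85 and 0.60. Of 5 epicardial markers 0 were called in either set, with 1 at an unadjusted p under 0.05 in each, at r of 0.01 and -0.15. For 5 measured markers of the atrioventricular canal and outflow tract r was 0.38 and 0.25, and 0 were called in either set, with 2 and 3 at an unadjusted p under 0.05. Maternal decidua markers had a median mean signal of 3.64, and 0 of 5 were called in either set, with 0 and 1 at an unadjusted p under 0.05.

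**Figure D5:**
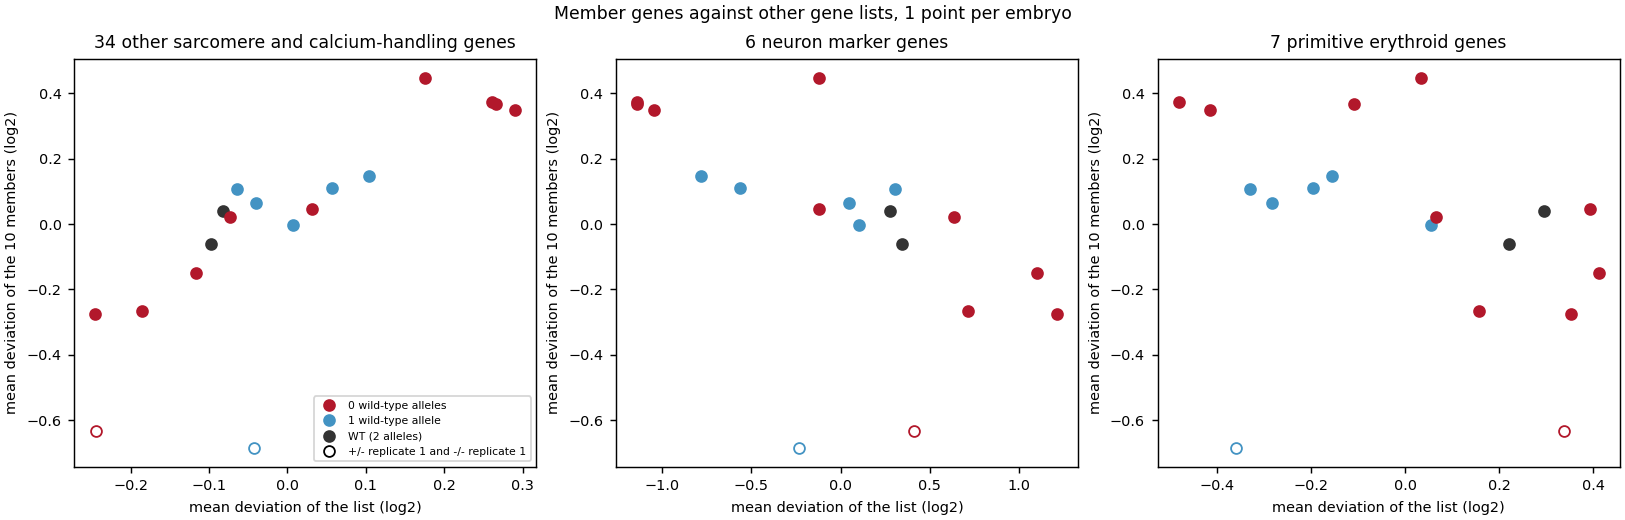
Mean log2 deviation of the 10 heart genes (vertical axes) against that of 34 other sarcomere and calcium-handling genes, 6 neuron markers and 7 primitive erythroid genes (horizontal axes), 1 point per embryo, open for +/- replicate 1 and -/- replicate 1. The points run upward in the first panel (r = 0.80 over 18 arrays) and downward in the neuron panel (r = -0.57) and the erythroid panel (r = -0.37).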

How the data were processed

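The deposited log2 values are probe set summaries that the authors made by RMA in affy, as the submitters' processing notes name them; this method corrects background, equalises array distributions and summarises each set by median polish. Versions and filters: not given in the sources used here. No further filter or scaling was applied, and no detection call exists. Genes were named from the platform annotation, and the brightest probe set of a single symbol (highest mean over 18 arrays) stood for a gene. limma 3.58.1 in R 4.3.3 was fitted to all 45037 probe sets with 9 genotype means (lmFit, eBayes; 9 residual and 3.63 prior degrees of freedom), with 3 means by number of wild-type alleles, and on the Tbx1 signal. All tests were two-sided, and probe sets were called at p under 0.05 after Benjamini-Hochberg adjustment over the array. SE is limma's moderated standard error. In the fit with 9 genotype means, the p-values measure the spread between embryos of the same genotype. The allele comparison, the regression on Tbx1 and the permutation tests pool embryos of different genotypes. Their spread therefore also holds differences between genotypes, and the 2 embryos of a genotype count as separate units. The calculation was tested on simulated data.

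All 10 genes are named, with Tbx1, the 8 genes most alike in pattern, and up to 4 genes with the smallest F-test p of a list or any whose call is counted when 5 or fewer were called; other names were chosen after their values were seen. The genes, lists and alternatives were chosen with earlier results of these data known. Replicate numbers 1 and 2 were not treated as pairs in the main fit. The deviations of same-numbered embryos from their genotype means correlated at a median r of 0.04 over 36 pairs of genotypes. They ranged from -0.26 to 0.19, with 9 over 0.1, and whether some genotypes shared a batch was not tested. Promoter windows are from RefSeq, assembly GRCm38.p6. RNA input was 6 ug per array, per the labels.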

Additional observations from a re-analysis of the deposited data

Results flagged for a closer look

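In a group of embryos with the same number of wild-type alleles, a value was singled out where its gap to the nearest embryo was large relative to the group's range. Of 20 groups checked, 7 were singled out, where chance alone singles out about 1 in 20. The 20 groups are not independent, since they reuse the same embryos for each gene. That 2 arrays stood apart was already known from these data, so the count is a description and no new test. All 7 are replicate 1 of -/- or of +/-. Among the 10 embryos without a wild-type allele, -/- replicate 1 was lowest for Myh6 (7.72, next 9.33), Actc1 (11.46, next 12.11), Ryr2 (4.05, next 4.98) and Nppa (7.70, next 8.64). Among the 6 with 1 allele, +/- replicate 1 was lowest for Myh6 (7.55, next 9.83), Myl7 (9.67, next 11.36) and Tnnt2 (7.76, next 9.84). The second Tnnt2 probe set read 9.31 on that +/- array. The cause was not tested.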

How the results depend on the processing

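Depth is replaced here by the number of arrays: with 2 embryos per genotype, small differences could not be called. Of the 11 counts of called heart probe sets, all 0 with 18 arrays, none moved with the replicate block, embryo sex as a covariate or array weights. None moved with an intensity trend, dim probe sets left out or array medians subtracted either. The block, a shared replicate number, left every count of called heart probe sets at 0. Without the 2 arrays that stood apart the counts were 1 in Neo2/Neo2 and 2 in the F-test. With embryo sex as a covariate as well, a fit added after the values were seen, all 11 were 0. Of all probe sets, that fit called 782 in the F-test and 4 in Neo2/Neo2. Leaving out single arrays gave 0 to 3 calls in +/- (3 without +/- replicate 2, or 15.8%, where 11.2% of all probe sets were called), 0 to 7 in -/- (7 without -/- replicate 2, or 36.8%, where 11.4% were) and 0 to 3 in the F-test (2 and 3 without those same arrays, where 10.6% and 6.77% were), and 0 in the 8 other counts. The remaining single arrays +/- replicate 1 and -/- replicate 1 carry those calls.

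Of the balances between 0 and 1 wild-type allele, Myl2 minus Myl7 turned to 0.16 without the 2 arrays (-0.14 to 0.24 leaving out single arrays), Myl3 minus Myl4 to 0.00099 (-0.051 to 0.028; 0.080 with the mean of all probe sets) and Nppa minus Tnnt2 to 0.063 (single arrays -0.57 to -0.025). Myh7 minus Myh6 ranged from -0.34 to -0.0012.

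Signs of differences from WT turned as follows. Without the 2 arrays, +/- gave Myh6 0.33, Myh7 0.39, Myl7 0.25, Tnnt2 0.10 and Nppa -0.033, and -/- gave Myh6 0.59, Myh7 0.12, Myl2 -0.026, Actc1 0.27, Ryr2 0.82 and Nppa 0.17. With sex as a covariate, Neo2/Neo2 gave Tnnt2 -0.14 and Nppa 0.13, and +/- gave Myl4 -0.022, as did subtracted medians (-0.0086). With sex and without the 2 arrays together, Neo2/Neo2 gave Nppa 0.16, +/- gave Myh6 0.22, Myh7 0.37 and Myl7 0.14, and -/- gave the values it had without the 2 arrays. Other probe sets gave Myl4 -2.6e-05 and Myl4 -0.12 (Neo2/Neo2 and -/-), Ryr2 0.060 and Ryr2 0.19 (Neo2/Neo and -/-), Myl3 -0.091 (+/-), and Tnnt2 0.093, 0.32 (+/-) and -0.080 (-/-). Leaving out single arrays, Neo2/Neo ranged from -0.11 to 0.031 for Myh7 and -0.23 to 0.15 for Ryr2. In +/- the ranges were Myh6 -2.16 to 0.33, Myh7 -0.71 to 0.39, Myl3 -0.0084 to 0.11, Myl4 -0.052 to 0.11, Myl7 -1.64 to 0.25, Tnnt2 -2.03 to 0.10 and Nppa -0.033 to 0.14. In -/- they were Myh6 -2.00 to 0.59, Myh7 -1.39 to 0.12, Myl2 -0.026 to 0.37, Myl7 -0.16 to 0.67, Tnnt2 -0.25 to 0.38, Actc1 -0.90 to 0.27, Ryr2 -0.98 to 0.82 and Nppa -1.19 to 0.17. Apart from Ryr2 in Neo2/Neo2 without the 2 arrays and single-array fits in +/- and -/-, no gene difference crossed the threshold; the cause was not tested.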
